A study of Homo sapiens with 22 samples.

Results

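Binding of MTBP, the chromatin mark H3K4me2 and early replication initiation zones were described around 8 genes of the EGF receptor pathway: the receptors EGFR, ERBB2 and ERBB3, the ligands AREG, EREG, EPGN and BTC, and the receptor inhibitor ERRFI1. Each gene's RefSeq span was widened by 50 kb on each side, and every deposited peak or zone that overlapped the widened span by at least 1 bp was taken. The 8 spans merged into 6 windows of 1067.46 kb in all. They held 48 of 29848 MTBP peaks, 62 of 62388 H3K4me2 peaks and 8 of 2473 initiation zones. The genes were chosen by their place in the pathway and on earlier results from these same lists, the MTBP peak counts and the WT and deltaC signals near them, so the values below are descriptions and carry no test. At least 1 MTBP peak lay within 50 kb of all 8, as it did for 80.7% of protein-coding genes.

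The study used DLD-1, an established line from a human colorectal adenocarcinoma. CUT&RUN, in which an antibody tethers a nuclease that releases the bound DNA, was done with a FLAG antibody in 3 libraries each of MTBP-mAID/MTBP-WT-FLAG cells (full-length MTBP, WT below), MTBP-mAID/MTBP-deltaC-FLAG cells (MTBP truncated at its C terminus, deltaC below) and MTBP-mAID/MTBP-mAID cells, the control without FLAG. In MTBP-mAID/MTBP-WT-FLAG cells, 2 further libraries were made with IgG and 2 with an antibody to H3K4me2. EdU-seq, which captures DNA labelled while it is copied, had 3 libraries each of G1-arrested MTBP-mAID/MTBP-WT-FLAG cells and of MTBP-mAID/MTBP-WT-FLAG and MTBP-mAID/MTBP-deltaC-FLAG cells released into S phase, with 10 µM EdU for 3 hr. Per the series design, cells were released with hydroxyurea and aphidicolin present. All groups share an mAID tag on at least 1 listed MTBP allele, and whether the degron was used in these libraries, and whether a line is a single clone, is not given in the sources used here.

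The lists give 1 value per peak and cell line, with no library values, so no replicate error, depth or counting interval can be attached to a peak. All scores, signals and folds below are the authors' own. The peak score has no stated scale. The WT and deltaC signals are linear values whose scaling between the lines is not stated. Their ratio is written as log2((deltaC + 1)/(WT + 1)), and it is read against the median of all MTBP peaks, -0.93 (quartiles -1.32 and -0.59). Only 877 of the 29848 peaks are named for deltaC, so the list itself holds mostly peaks called in WT. As a cell type check, H3K4me2 lay within 1 kb of the start site of 7 of 8 colorectal epithelium markers (not GPA33). It did so for 2 of 9 markers of other cell types (CD3E and COL1A1) and for 61.9% of all protein-coding genes. KRT8 and KRT18 had the same MTBP peak and the same H3K4me2 fold there, so they are not separate counts. No strand was at hand for some of the markers, and either gene end was taken. This was so for EPCAM, CDH1, VIL1 and KRT18 among the 7 and for both CD3E and COL1A1. DNA copy number at these loci was not examined.

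MTBP and Treslin act together when replication origins fire: helicases are loaded on DNA in G1, and the pair helps to turn them into working forks in S phase. H3K4me2 marks promoters and enhancers. In the pathway studied here, membrane-bound ligands are cut free and bind EGFR, which pairs with ERBB2 or ERBB3 and passes the signal to RAS, ERK and PI3K. ERRFI1 (also called MIG6) binds the active receptor's kinase domain and blocks it, and is itself induced by the signal. Intestinal epithelium depends on these signals for growth and repair.

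The start sites differed in what they carried, and 5 sequences are printed because they show both the bound and the unbound kind. Each runs 5′ to 3′ from 250 bases before to 50 bases after a start site, from RefSeq (GRCh38.p14), which held such a window for 7 of the 8 genes (none for ERBB3). Capitals mark matches, on either strand, to the letters TGANTCA for AP-1, TGACGTCA for the CRE, GGGCGG for the GC box, TATAAA for the TATA box and CACGTG for the E-box. No one of these motifs contains another. Among all 34961 RefSeq windows of 300 bases, 7.68% hold the AP-1 letters, 1.85% the CRE, 45.0% the GC box, 11.5% the TATA box and 7.27% the E-box. A match is a description and not evidence of a factor.
ERRFI1, chr1:8026260-8026559, minus strand, MTBP present: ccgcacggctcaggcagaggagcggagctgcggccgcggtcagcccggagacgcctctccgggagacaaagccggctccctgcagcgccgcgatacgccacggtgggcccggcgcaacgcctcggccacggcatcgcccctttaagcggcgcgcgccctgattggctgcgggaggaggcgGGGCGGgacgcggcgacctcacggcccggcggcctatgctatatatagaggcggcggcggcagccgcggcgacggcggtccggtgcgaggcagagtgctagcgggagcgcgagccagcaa
AREG, chr4:74444886-74445185, plus strand, MTBP present: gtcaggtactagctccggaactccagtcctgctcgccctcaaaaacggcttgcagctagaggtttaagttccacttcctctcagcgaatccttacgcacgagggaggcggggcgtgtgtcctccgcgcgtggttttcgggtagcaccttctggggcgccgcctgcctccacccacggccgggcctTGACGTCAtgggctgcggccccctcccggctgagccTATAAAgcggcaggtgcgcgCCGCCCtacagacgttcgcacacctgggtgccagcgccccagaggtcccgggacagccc
EGFR upstream start, chr7:55018767-55019066, plus strand, MTBP absent: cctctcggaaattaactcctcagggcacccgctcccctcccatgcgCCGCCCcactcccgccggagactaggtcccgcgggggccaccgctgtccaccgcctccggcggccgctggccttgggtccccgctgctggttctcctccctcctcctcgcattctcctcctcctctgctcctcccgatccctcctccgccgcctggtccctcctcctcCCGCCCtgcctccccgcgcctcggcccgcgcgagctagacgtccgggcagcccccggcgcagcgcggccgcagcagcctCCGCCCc
EGFR internal start, chr7:55109589-55109888, plus strand, MTBP present: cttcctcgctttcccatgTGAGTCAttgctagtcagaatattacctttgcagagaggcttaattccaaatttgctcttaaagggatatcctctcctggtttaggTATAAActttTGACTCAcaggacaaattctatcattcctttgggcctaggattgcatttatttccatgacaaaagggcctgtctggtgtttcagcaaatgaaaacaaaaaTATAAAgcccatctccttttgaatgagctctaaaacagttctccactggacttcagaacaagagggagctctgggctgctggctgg
EPGN, chr4:74308220-74308519, plus strand, MTBP and H3K4me2 absent: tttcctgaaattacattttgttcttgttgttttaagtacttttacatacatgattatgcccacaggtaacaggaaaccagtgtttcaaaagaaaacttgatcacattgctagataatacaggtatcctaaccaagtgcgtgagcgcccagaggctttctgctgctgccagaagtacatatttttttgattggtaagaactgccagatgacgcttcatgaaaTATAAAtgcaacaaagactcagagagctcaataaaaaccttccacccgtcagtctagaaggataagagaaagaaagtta

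The bound and unbound start sites overlapped in base composition. The EGFR upstream window was 75.3% G+C with 33 CpG pairs and 3 GC boxes, and no MTBP peak reached it. The ERRFI1 window was nearly the same in composition, 74.7% G+C with 47 CpG pairs, and lay in an MTBP peak. The EGFR internal window was 42.0% G+C with 1 CpG pair, 2 AP-1 matches and 2 TATA matches, and 250 of its 300 bases lay in an MTBP peak. EPGN had the lowest value, 37.7% G+C with 4 CpG pairs. AREG was 66.3% G+C and was the only one of the 7 genes' windows with a CRE match. Over all RefSeq windows, the median G+C was 65.3% in the 10655 that an MTBP peak touched, 65.7% in the 6242 with H3K4me2 and no MTBP, and 50% in the 18064 with neither.

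Across the 8 genes, an MTBP peak lay within 1 kb of the start site of 6 (all but EGFR and EPGN), against 40.7% of all protein-coding genes. An H3K4me2 peak lay there in 7 (all but EPGN), against 61.9% of coding genes. The start sites of 4 genes, ERBB2, ERBB3, AREG and ERRFI1, lay inside an initiation zone, against 20.7%. A zone touched the window of 7 genes (all but EPGN), against 38.1%. MTBP density in the merged windows was 44.97 peaks per Mb, against 9.86 over the genome, and zones covered 34.2% of the windows against 4.73% of the genome. The genome values include stretches far from genes: the median window of a coding gene held 1.64 MTBP peaks per 100 kb (quartiles 0.646 and 2.96).

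By that measure the 8 genes spread widely. ERRFI1 had 9.60 MTBP peaks per 100 kb, above 99.5% of coding genes. ERBB3 had 6.48, EREG 5.66, AREG 5.46 and ERBB2 4.98, each above at least 91.5% of coding genes. EPGN had 2.77 and EGFR 2.73, above 71.3% and 70.6%. BTC had 1.34, above 43.6%, and was the only one of the 8 below the median coding gene. The windows of EPGN, EREG and AREG overlap, so their counts share peaks.

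**Figure D1:**
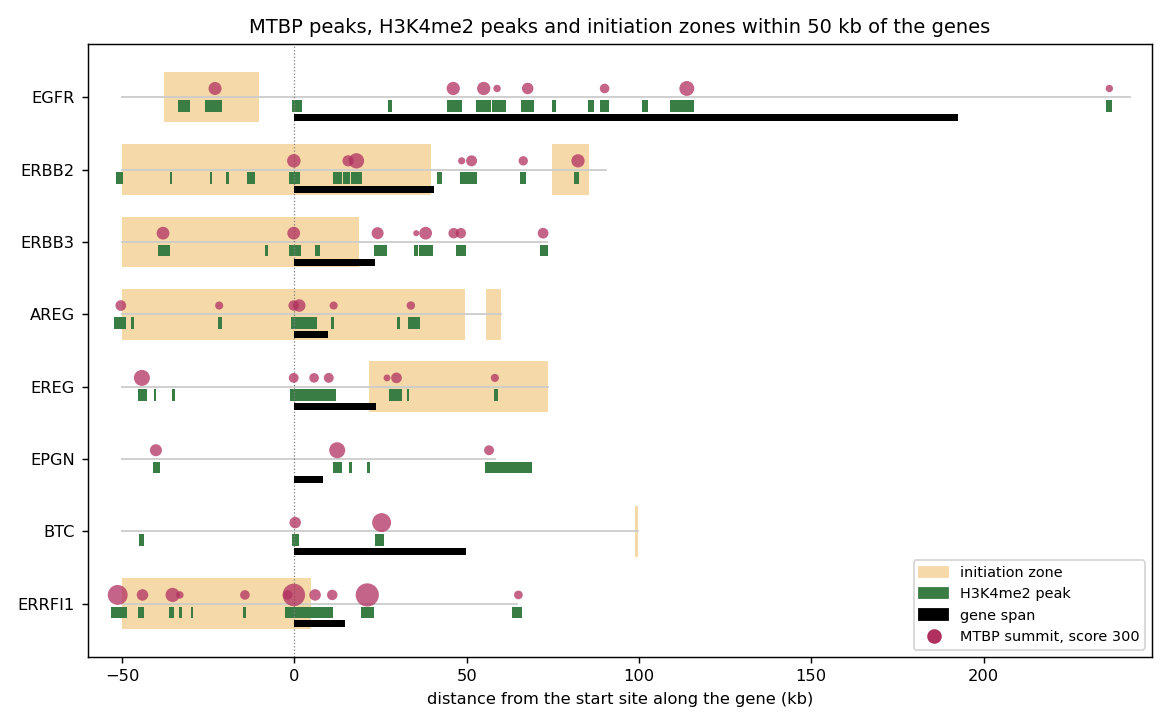
Map of the 8 gene windows, with distance in kb from each start site along the direction of transcription on the x axis and 1 gene per row. Red circles are MTBP summits with area in proportion to the authors' peak score, green bars are H3K4me2 peaks, shaded blocks are initiation zones clipped to the window and black bars are gene spans. At EGFR 6 of 8 summits lie inside the gene and none lies within 1 kb of the start site, while at ERRFI1 the start site carries a peak of score 932 near the edge of a zone.

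EGFR, the founding receptor of the family, lies at chr7:55019017-55211628 (plus strand). Its window held 8 MTBP peaks, 15 H3K4me2 peaks and 1 zone. At the start site there was an H3K4me2 peak of fold 26.1 (chr7:55018360-55021156) and no MTBP. Over all coding genes with H3K4me2 at the start site, 34.3% likewise had no MTBP within 1 kb of it. The MTBP peaks stood instead in intron 1, where 6 of enhancer class followed each other from 46.1 to 114 kb past the start site.
The lowest of these intron peaks, chr7:55064707-55066197, had a score of 324, a WT signal of 607 and a deltaC signal of 538 (log2 ratio -0.17). The next, chr7:55073760-55074567, had the same score of 324 with WT 704 and deltaC 298 (-1.24). These neighbouring peaks had like WT signals and unlike deltaC signals. The smallest, chr7:55077577-55078137, had score 103, WT 229 and deltaC 94.0 (-1.27), and yet lay in the H3K4me2 peak of highest fold in the window, 55.5 (chr7:55076368-55080474). The peak chr7:55086191-55087958 had score 244, WT 709 and deltaC 430 (-0.72).
The peak chr7:55108592-55109838, score 170, is annotated by the authors to the start of the transcript NM_001346900, and its end lies 1 bp before the internal start site whose sequence is printed above. Its WT signal was 417 and its deltaC signal 412 (-0.02), the highest ratio in the EGFR window, inside H3K4me2 of fold 26.7. The peak of highest score, 409, was the last in the intron, chr7:55132680-55134016, with WT 740 and deltaC 308 (-1.26), in an H3K4me2 domain of 6.99 kb. The ratios within this single intron thus ran from -1.27 to -0.02. The lowest of them still lay between the quartiles of all MTBP peaks, -1.32 and -0.59.
Outside the gene, a peak of class others at chr7:54995541-54996682 (score 312, WT 498, deltaC 277, ratio -0.84) lay upstream, with its summit at -23.0 kb from the start site. It was the only peak of this window inside a zone, chr7:54981205-55008747, which is 27.5 kb wide, scores 270 (rank 1848 of 2473) and ends 10.3 kb before the start site. The peak chr7:55255301-55255646, score 100 and named for deltaC, had WT 149 and deltaC 126 (-0.24) and lay past the gene's 3′ end. The start site and all of the EGFR gene lay outside the listed zones.

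ERBB2, the receptor with no known ligand that serves as the preferred partner of the others, lies at chr17:39688094-39728658 (plus strand). Its window held 7 MTBP peaks, 13 H3K4me2 peaks and 2 zones, which covered 71.6% of it. The start-site peak, chr17:39686734-39688492, had a score of 336, the highest WT signal of the window, 853, and deltaC 567 (-0.59). It lay in H3K4me2 of fold 24.5. Within the gene, chr17:39702928-39703843 (class others) had score 233, WT 225 and deltaC 150 (-0.58), the highest ratio of the window. The enhancer-class peak beside it, chr17:39705622-39707531, had the highest score, 434, with WT 601 and deltaC 318 (-0.92). These 3 peaks lay in a zone of 134 kb, chr17:39593393-39727876, which scores 2358 (rank 199) and runs from NEUROD2 to the 3′ part of ERBB2.
The other 4 peaks lay past the gene. A pair at the promoter of GRB7, an adaptor that binds activated ERBB2, had WT 187 and deltaC 78.0 (chr17:39736143-39736931, score 95) and WT 397 and deltaC 205 (chr17:39737857-39739924, score 222). Both lay in the H3K4me2 peak of highest fold of all 62, 62.3. An enhancer-class peak, chr17:39753977-39754819, had score 160, WT 258 and deltaC 159 (-0.70). The lowest ratio was -1.55, at chr17:39769618-39770660 in an intron of IKZF3 (score 324, WT 648, deltaC 221). That peak lay in a zone of its own, 10.8 kb wide with a score of 168 (chr17:39762883-39773692, rank 2120). ERBB2 and GRB7 are neighbours that are often amplified together in tumours, and here GRB7 lay between the 2 zones.

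ERBB3, whose kinase is weak and which docks PI3K when paired with ERBB2, lies at chr12:56080108-56103505. Its window is dense in genes, and all 8 MTBP peaks in it were of promoter class, against 34.7% of all MTBP peaks. The start-site peak, chr12:56078767-56080616, had score 300, WT 820 and deltaC 351 (-1.22), in H3K4me2 of fold 23.8. A second peak of score 300, chr12:56040958-56042551 at the start of RPS26, a ribosomal protein gene, had WT 648 and deltaC 345 (-0.91). Both lay in the zone chr12:56025892-56098995, 73.1 kb wide with a score of 1871 (rank 333), which ends inside ERBB3.
The 6 peaks past that zone belonged to neighbouring promoters. At PA2G4, which encodes an ERBB3-binding protein, chr12:56103526-56106013 had score 266, WT 764 and deltaC 314 (-1.28). At ZC3H10, chr12:56117737-56119233 had score 300, WT 663 and deltaC 355 (-0.90). At MYL6B, chr12:56151599-56152954 had score 211, WT 555 and deltaC 251 (-1.14). The highest ratio, -0.37, was at a peak named for deltaC, chr12:56115219-56115726, which had the lowest score of all 48, 67 (WT 174, deltaC 134).
The ESYT1 promoter held the low end. There chr12:56126065-56126739 (score 201) had WT 211 and deltaC 49.0 (-2.08), and chr12:56127701-56129714 (score 201) had WT 712 and deltaC 193 (-1.88). The former was the only one of the 48 MTBP peaks that touched no H3K4me2 peak, against 98.9% of all MTBP peaks that do touch H3K4me2. The highest H3K4me2 fold in the window, 35.0, lay over the latter.

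The 4 ligand genes lie in a row on chromosome 4. EPGN, EREG, AREG and BTC encode epigen, epiregulin, amphiregulin and betacellulin, all of which bind EGFR. From the lower edge of the EPGN window to the upper edge of the BTC window (chr4:74258470-74844523, 586 kb) the lists held 31 MTBP peaks, 26 H3K4me2 peaks and 3 zones. MTBP density was 52.9 per Mb, and zones covered 39.2% of the stretch. Of the 31 peaks, 25 were of enhancer class (80.6%, against 17.6% of all MTBP peaks). In a zone lay 23, against 23.0% of all MTBP peaks. Between the AREG and BTC windows, more than 50 kb from any of the 4 genes, lay 17. The stretch spans a zone picked beforehand for its MTBP density, described below. That zone alone gives 11 of the 31 peaks, all of enhancer class, and so raises these counts and the density.

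AREG, at chr4:74445136-74455005, is a ligand long studied in colorectal tumours together with EREG. All 6 MTBP peaks of its window lay in the zone that holds its start site, chr4:74386720-74494520, which is 108 kb wide and scores 1380 (rank 543). The start-site peak, chr4:74444613-74445870, had score 201, WT 408 and deltaC 347 (-0.23), the highest ratio of the window. The peak of highest score, 289, summit 1.43 kb past the start site (chr4:74446391-74447030), had WT 351 and deltaC 87.4 (-1.99), the lowest ratio. The 2 peaks at this start thus differed little in WT signal and much in deltaC signal, under a single H3K4me2 domain of 7.53 kb and fold 40.
Of the other AREG peaks, chr4:74423039-74423701 (score 121, WT 260, deltaC 214) and chr4:74478657-74479602 (score 131, WT 225, deltaC 186) were of class others. The enhancer-class peak chr4:74455893-74457409, just past the gene, had score 121, WT 482 and deltaC 166 (-1.53). The enhancer-class peak between EREG and AREG, chr4:74394251-74396156, had the highest WT signal of the window, 743, with deltaC 364 and score 211. The ratios of this window ranged widely around their median of -0.65.

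EREG lies at chr4:74365145-74388749. Its start site lay in an H3K4me2 domain of 13.6 kb (chr4:74363811-74377382, fold 18.1), the 52nd widest of 62388. That domain held 3 MTBP peaks. Only 0.426% of all H3K4me2 peaks held 3 or more. They were chr4:74364062-74365367 at the start site (score 180, WT 476, deltaC 233), chr4:74370640-74371255 (score 170, WT 290, deltaC 154) and chr4:74374100-74375276 (score 180, WT 486, deltaC 230). Their ratios were close together, -1.03, -0.91 and -1.07, unlike those at AREG. All 3 lay outside the zones, since the zone of AREG begins 21.6 kb past the EREG start site, near the gene's 3′ end. In the zone, chr4:74391307-74392736 had score 86, WT 369 and deltaC 126, with the lowest ratio of the window, -1.54. The highest, -0.28, was the peak at chr4:74423039-74423701 that the AREG window shares.

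EPGN, at chr4:74308470-74316789, had neither H3K4me2 nor MTBP within 1 kb of its start site, and no zone reached its window. Its 3 MTBP peaks lay at a distance. The nearest, chr4:74320322-74321805, summit 12.4 kb past the start site and beyond the gene's end, had the highest score of the EPGN and EREG windows, 472, with WT 741 and deltaC 349 (-1.08). It lay in H3K4me2 of fold 34.3, the highest in both windows. The peak chr4:74267817-74269054, with its summit at -40.2 kb from the start site, had score 266, WT 681 and deltaC 431 (-0.66). The remaining peak was the EREG start-site peak. EPGN was thus the only ligand of the 4 whose own start carried none of the 3 features.

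BTC, at chr4:74744759-74794523 (minus strand), had 2 MTBP peaks. The start-site peak, chr4:74793721-74795029, had score 244, WT 467 and deltaC 315 (-0.57), in H3K4me2 of fold 39.7. An enhancer-class peak 25.3 kb into the gene, chr4:74768766-74769806, had score 659, the highest of the 4 ligand windows, with WT 732 and deltaC 405 (-0.85). Its H3K4me2 fold was lower, 15.8. The only zone in the window entered it by 954 bp.

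That zone, chr4:74624786-74695712, begins 169.8 kb past AREG and ends 49.0 kb from BTC, and no coding gene touches it. It is 70.9 kb wide and scores 2670 (rank 148 of 2473). It held 11 MTBP peaks, a density of 155 per Mb, which ranked 2 among the 1185 zones of at least 50 kb. The zone was picked beforehand for its MTBP density, so this rank follows from the choice and is no separate result. All 11 were of enhancer class, against 17.6% of all MTBP peaks. Single peaks were not strong: scores ran from 95 to 255 with a median of 190, equal to the list median, and WT signals from 197 to 583 with a median of 405. DeltaC signals ran from 119 to 329 with a median of 199, and the median ratio was -1.10. In 7 of the 11 the ratio was below the list median of -0.93, but over all MTBP peaks in zones the median was -1.14. In 1, chr4:74661639-74662389, deltaC was at WT level (WT 197, deltaC 199).
The peaks crowded into wide H3K4me2 domains. A domain of 19.8 kb (chr4:74617848-74637647, fold 16), the 15th widest of all, held 6 MTBP peaks, 5 of them in the zone. Only 9 of the 62388 H3K4me2 peaks held 6 or more. Since the zone was picked for its MTBP density, this count too follows from the choice and is no separate result. A second domain of 10.4 kb (chr4:74659417-74669818, fold 18.6) held 4. In contrast, the H3K4me2 peak of highest fold in the zone, 19.6, held none.
Between this zone and that of AREG lay another zone, chr4:74500831-74551742, 50.9 kb wide with a score of 1336 (rank 573). Its 5 MTBP peaks, all of enhancer class, lay in a single H3K4me2 peak of fold 19.1 between 89.2 and 100.3 kb from the AREG start site. Their WT signals were 693, 366, 382, 419 and 162 and their deltaC signals 369, 209, 117, 294 and 115. None of the 5 reached a score above 233.

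**Figure D2:**
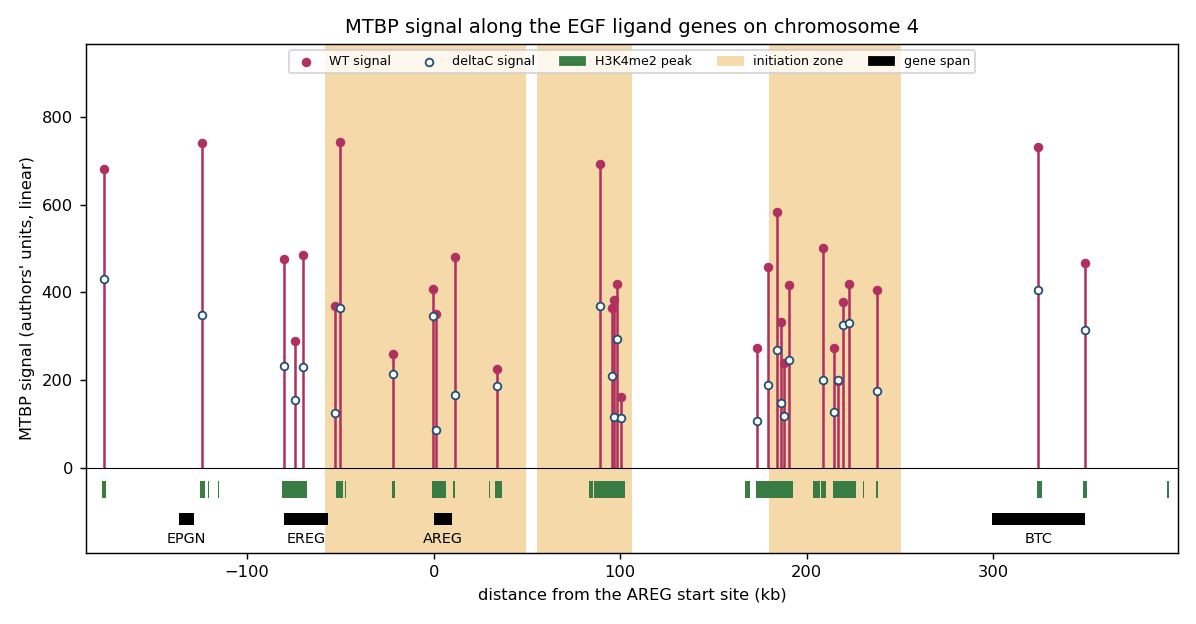
WT signal (filled red, with stems) and deltaC signal (open blue) of the 31 MTBP peaks along the ligand genes, in the authors' linear units, against distance in kb from the AREG start site. Green bars are H3K4me2 peaks, shaded blocks the 3 initiation zones and black bars the genes. The crowd of 11 peaks between AREG and BTC has WT signals of 197 to 583, below the highest of the stretch, 743, between EREG and AREG.

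ERRFI1, at chr1:8011727-8026309 (minus strand), had the most peaks of the 8 genes, 11 in a window of 114.6 kb. The start-site peak, chr1:8025750-8026948, had score 932, WT 891 and deltaC 382 (-1.22). The promoter-class peak upstream, chr1:8027201-8028593 (score 160, summit at -1.91 kb from the start site), had WT 356 and deltaC 400 (0.17). It was the only one of the 48 peaks with deltaC at or above WT, against 4.52% of all MTBP peaks. Within the gene, chr1:8019218-8021469 had score 244, WT 578 and deltaC 381 (-0.60), and chr1:8014580-8017080 had score 201, WT 732 and deltaC 334 (-1.13). These 4 peaks shared an H3K4me2 domain of 14.0 kb (chr1:8014989-8028951, fold 43.7), the highest fold of the window and the 46th widest of all. Only 0.104% of H3K4me2 peaks held 4 or more MTBP peaks.
Past the gene's end, the enhancer-class peak chr1:8003202-8006846 had the highest score of all 48, 992, with WT 1672 and deltaC 993 (-0.75). It lay 21.2 kb from the start site and outside any zone. At the far end of the window, chr1:7961025-7961953 at the promoter of PARK7 had score 140, WT 300 and deltaC 158 (-0.92). The deltaC signal of 993 was the highest of the 48 peaks, with a ratio above the list median.
Before the start site, chr1:8040422-8041211 had score 170, WT 259 and deltaC 167, and chr1:8061145-8062209 had score 372, WT 785 and deltaC 468. The peak chr1:8069701-8071400 had score 244, WT 580 and deltaC 302. At chr1:8059227-8060081 (score 103), WT was 149 and deltaC was listed at 0, so no fold is given. The furthest, chr1:8075229-8079280, had the highest WT signal of all 48, 2397, with score 729 and deltaC 892 (-1.43). The 3 highest-scoring peaks of the window thus lay at the start site, at 21.2 kb and at -51.3 kb from it.

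These upstream peaks belong to a zone of 316 kb, chr1:8021541-8337538, which runs from inside ERRFI1 into SLC45A1, a sugar transporter gene. By width it ranked 5 and by score, 4807, it ranked 24 of the 2473 zones. It held 24 MTBP peaks, all with summits upstream of the ERRFI1 start site, and 31 H3K4me2 peaks. Of the latter, 22 touched MTBP (71.0%, against 43.6% of all H3K4me2 peaks). By class, 19 of the MTBP peaks were enhancer and 5 promoter, against 17.6% and 34.7% of all MTBP peaks. Their WT signals ran from 149 to 2397 (median 561) and their deltaC signals from 0 to 1166 (median 275), with a median ratio of -1.06. In 16 of the 24 the ratio was below the list median. Over all MTBP peaks in zones the median ratio was -1.14, lower than in this zone.
The peak of highest score in the zone, 1115, was chr1:8116265-8118662 (WT 1312, deltaC 483). The highest deltaC signal was at chr1:8094226-8098337 (WT 2312, deltaC 1166). The lowest measured ratio, -3.97, was at chr1:8189743-8190430 (WT 369, deltaC 22.6). No MTBP peak was listed in the 77.7 kb and no H3K4me2 peak in the 76.2 kb at the zone's far end. The density of this zone, 7.59 MTBP peaks per 100 kb, ranked 186 of the 1185 zones of at least 50 kb, well behind that of the ligand zone.

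**Figure D3:**
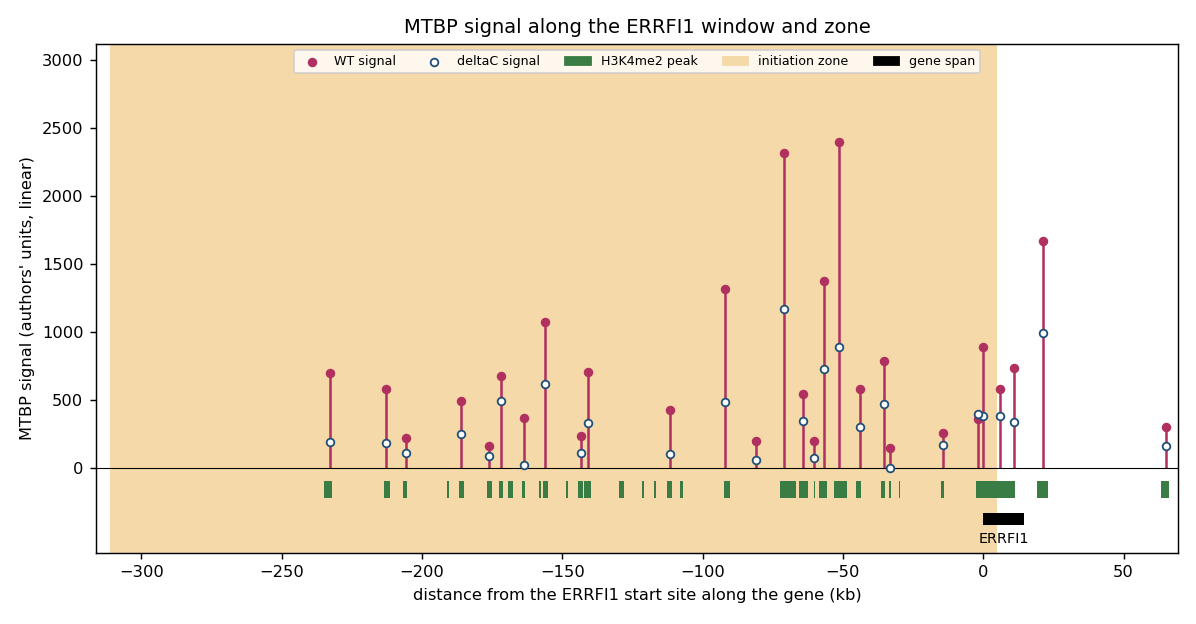
WT signal (filled red, with stems) and deltaC signal (open blue) of each MTBP peak in the ERRFI1 window and zone, in the authors' linear units, against distance in kb from the start site along the gene, so that upstream is to the left. Green bars are H3K4me2 peaks, the shaded block the zone and the black bar ERRFI1. The highest WT signals, 2397 and 2312, stand upstream in the zone, and the far end of the zone has no peak of either kind.

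Among the 48 peaks together, the classes differed from the list. Enhancer class made up 22 (45.8%, against 17.6% of all MTBP peaks), promoter class 21 (43.75%, against 34.7%) and others 5 (10.4%, against 47.7%). In a zone lay 21 (43.75%, against 23.0%). The median WT signal was 526, against 371 over the list, and the median deltaC signal 300.0, against 201. The difference between the lines was near that of the list. The median ratio was -0.92, against -0.93, and in 21 of the 48 (43.75%, against 45.1%) deltaC was below 50% of WT. By class the medians were -0.91 for enhancer, -1.03 for promoter and -0.58 for others, against -0.97, -0.97 and -0.88 over the list.
In the whole list, peaks in zones had a lower median ratio than peaks outside them, -1.14 against -0.87. Around these 8 genes the medians were -0.92 for the 21 in zones and -0.92 for the 27 outside. The 21 leave out peaks of these zones more than 50 kb from the genes, among them all 11 of the ligand zone picked for density. Over whole zones the median was -1.10 in that zone, -1.06 at ERRFI1 and ERBB3, -1.03 at AREG and -0.76 at the ERBB2 start. In the zone between the AREG zone and the dense one it was -0.80. By gene the median ran from -0.65 at AREG and -0.71 at BTC through -0.78 at EGFR, -0.92 at ERBB2 and ERRFI1 and -1.03 at EREG and EPGN to -1.18 at ERBB3. The peaks of each gene overlapped in ratio with those of its neighbours in that order. Over the whole list of MTBP peaks, WT signal rose with peak width (Spearman rho 0.75) and with deltaC signal (0.78), as a description of values that share libraries and regions. These correlations were not computed for the 48 peaks alone.

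**Figure D4:**
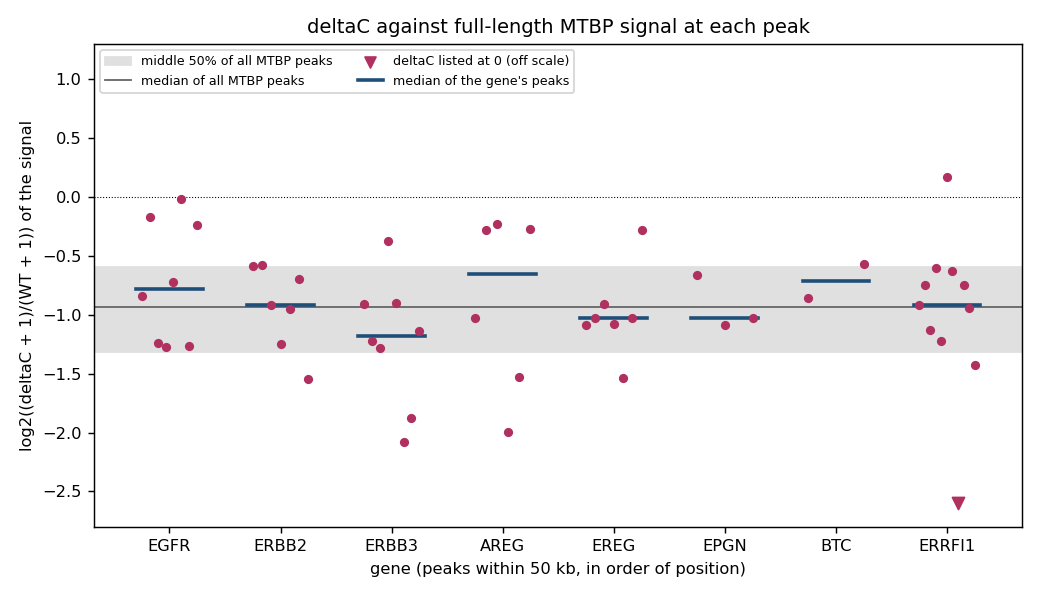
The log2 ratio of deltaC to WT signal, with 1 added to each, for every MTBP peak (points) within 50 kb of each gene, with the median per gene as a blue bar. The grey line and band are the median, -0.93, and the middle 50% of all MTBP peaks, and the triangle is the peak with deltaC listed at 0. The gene medians lie between -0.65 and -1.18, and a single peak, at ERRFI1, lies above 0.

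Of the 62 H3K4me2 peaks in the windows, 40 touched an MTBP peak (64.5%, against 43.6% of all H3K4me2 peaks). Those with MTBP had a median fold of 27.2 (range 4.76 to 62.3) and a median width of 2.95 kb. The 22 without had a median fold of 7.26 (range 3.38 to 35.1) and a median width of 1.07 kb. The ranges overlapped. Over the whole list the median folds were 23.0 with MTBP and 9.35 without. Exceptions without MTBP were the EGFR start site (fold 26.1) and the peak of fold 35.1 at chr7:54985293-54988831 in the zone upstream of EGFR. Both were singled out after their values were seen.

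The choice of 50 kb leaves peaks close to the edge on both sides. The peak at PARK7, 49.8 kb from ERRFI1, is just inside. Just outside is the peak at chr17:39636686-39637920, 50.2 kb from ERBB2, with score 103, WT 266 and deltaC 134.

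In a list of 48 other genes of the pathway, 37 (77.1%, against 40.7% of coding genes) had MTBP within 1 kb of the start site, 44 (91.7%, against 61.9%) had H3K4me2 there and 12 (25%, against 20.7%) had the start site in a zone. The receptor ERBB4 had none of these. Of 7 further ligands 4 had H3K4me2 and 2 had MTBP: TGFA, with a start-site peak of score 550, and HBEGF, with 160 and a start site in a zone. EGF, NRG1 and NRG3 had neither. NRG2 and NRG4 had H3K4me2 without MTBP.
All 3 genes of ligand shedding carried both marks, among them the proteases ADAM10 (score 289) and ADAM17 (180). So did all 6 adaptors and exchange factors, led by SHC1 (977) and SOS1 (537), which link receptors to RAS. Of the 10 genes from RAS to ERK, all had H3K4me2 and 7 had MTBP, among them MAP2K1 (score 160), the kinase that activates ERK. BRAF was among those without MTBP. Of the 8 genes of the PI3K, STAT and PLC arms, all had H3K4me2 and 6 had MTBP, the exceptions being AKT1 and PLCG1.
The genes of the list that hold the pathway back carried both marks. All 5 genes of receptor feedback had both marks, led by the ubiquitin ligase CBLB (1130) and SOCS5 (618). All 8 genes of ERK feedback had both marks as well, led by SPRED2 (524), which holds back RAF activation, and DUSP5 (336), an ERK phosphatase. The start sites of DUSP5 and DUSP6 (25% of ERK feedback genes) and of CBL (20% of receptor feedback genes) lay in zones. These shares are near the 20.7% of all coding genes. For DUSP5 and CBL either gene end was taken. The median ratio of the start-site peaks of the 37 genes with MTBP there was -0.94, close to the list's -0.93.

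**Figure D5:**
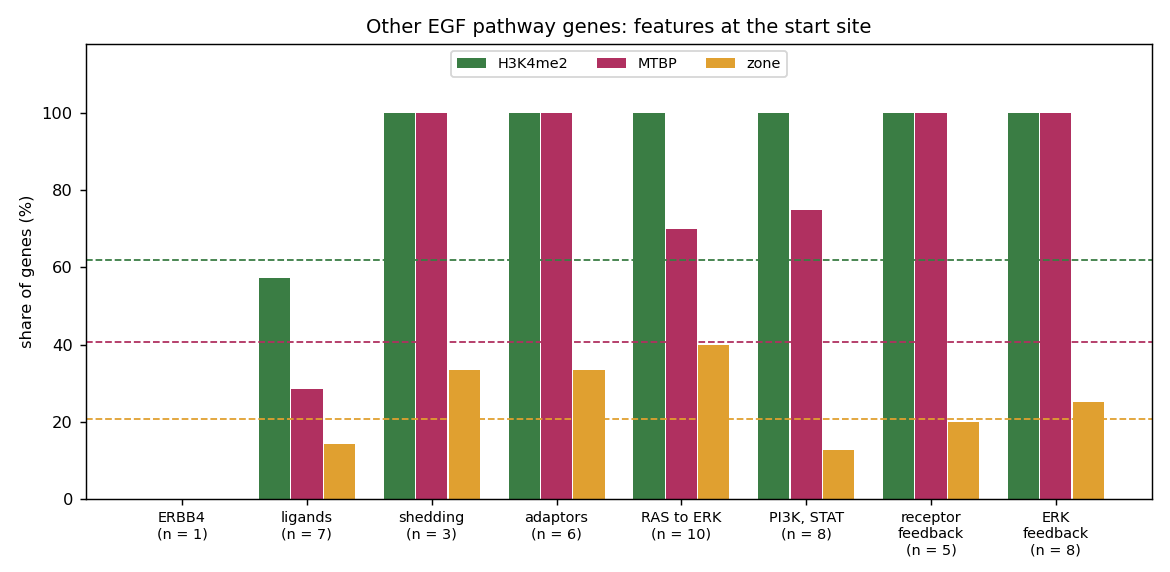
Share of the 48 other pathway genes, in percent by role, with an H3K4me2 peak (green) or an MTBP peak (red) within 1 kb of the start site, or with the start site in an initiation zone (orange). Dashed lines of the same colours are the shares over all protein-coding genes, 61.9%, 40.7% and 20.7%. ERBB4 has none, and ligands have the lowest shares of the other roles for H3K4me2 and MTBP. Shedding, adaptors and both feedback roles reach 100% for those marks, and RAS to ERK and PI3K, STAT reach 100% for H3K4me2 alone.

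Genes with like patterns were found by the distance between windows in MTBP count, H3K4me2 count (both as log2(count + 1)) and share covered by zones, over 19949 coding genes. Nearest to ERRFI1 were SLC2A1, a glucose transporter gene (distance 0.0957), and DAD1 (0.0973), each with 11 MTBP and 9 H3K4me2 peaks and zones over 38.2% and 38.1% of the window, against 47.8% for ERRFI1. Nearest to EGFR were DIS3L2 (0.00865) and TNFSF4 (0.0941), each with 8 MTBP and 15 H3K4me2 peaks. Zones covered 8.55% and 0% of their windows, against 9.41% for EGFR. Their windows were wider, 482.6 and 377.9 kb against 292.6 kb. The distance compares counts, so both had lower peak densities than EGFR.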

How the data were processed

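The deposited lists are those of MTBP peaks, H3K4me2 peaks and initiation zones. Per the submitters' processing notes, Trim Galore, Bowtie2, MACS2 and HOMER were used with build hg38 (versions not given in the sources used here). The roles and order of these tools, and any pooling of replicates, were not stated. Per the file headers, the MTBP list holds a peak score and a WT and a deltaC signal, and the zone list an average peak score. The H3K4me2 list, deposited in the layout that MACS2 writes, holds a score, a fold enrichment (ratio over background), −log10 q-values and summit offsets. The depth behind these values is unknown.

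The members, gene lists and rules here were chosen with earlier results of these data known. The count model planned for library counts was not used, because the lists give 1 value per line. Spans came from RefSeq (GRCh38.p14, the major assembly of hg38), and 1-bp overlaps were counted with Python 3.11.15, pandas 2.3.3 and numpy 2.4.6. Peaks on chromosome Y (10 MTBP, 116 H3K4me2) were left out. Start sites took strand from the RefSeq promoter table for 15813 of 19974 coding genes, and either gene end for the other 4161. ERBB3 is among the latter in the shares over all coding genes. For its own window, its start site was the gene end nearest the authors' promoter annotation of its transcript. MTBP and zone coordinates are as deposited, and H3K4me2 starts are 1-based. The scripts were tested on simulated peaks. Named for each gene were the MTBP peak nearest the start site, those of highest score and of lowest and highest ratio, every zone, and the H3K4me2 peaks at the start site and of highest fold; the other MTBP peaks of each window are given as values. For the pathway list, the 2 highest-scoring genes per role and those with H3K4me2 but no MTBP were named, except some that are not reported here. Other flanks, score minimums, overlaps, pseudocounts and start-site distances were tried.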

Additional observations from a re-analysis of the deposited data

How the results depend on the processing

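No paired analysis was possible because the lists hold no library values, and for the same reason leaving out each replicate was not run. Of 23 alternatives, 14 stayed within the limits set (counts within 1.5 times). With no flank the windows held 20 MTBP peaks, 23 H3K4me2 peaks and 4 zones, and with a 100 kb flank 73 MTBP and 96 H3K4me2 peaks. Keeping only features of at least the list's median score left 31 MTBP peaks. It lowered the share of H3K4me2 peaks with MTBP to 43.5% (24.2% over the whole list). In that setting 20 of the 48 other pathway genes kept MTBP at the start site, against 22.9% of all coding genes. Centred on the median of all MTBP peaks, the median log2 ratio became 0.015, so the lower deltaC signal around these genes is close to that of the whole list, and the scaling between the lines is unknown. The other alternatives for that ratio gave -0.94 to -0.90. Of the 8 genes, 5 or 6 had MTBP at the start site throughout, but the share of all coding genes moved with the setting. From 40.7% it rose to 48.2% with a distance of 5 kb and to 42.8% with either gene end taken. Dropping the MTBP peaks that scored below the list's median lowered it to 22.9%, and left 5 of the 8 genes. The deposited lists hold only features that passed the authors' calling, so an absent peak shows only that none was listed.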
